A study of Mus musculus with 33 samples.

Results

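The 10 genes described here are the core of the mammalian circadian clock: Per1, Per2, Per3, Cry1, Cry2, Arntl, Clock, Npas2, Nr1d1 and Dbp. They were chosen by name, 10 of 38355 genes with counts and of 40678 loci with FPKM (fragments per kilobase, scaled to the library), and all 10 were measured and passed the filters on low values in both kinds of file. The RNA came from the CA1 region of the mouse hippocampus and the study treated mice with JQ1, an inhibitor of the BET family of bromodomain proteins, readers of acetylated histones. Aged mice of 8 to 10 months were APP/PS1-21 mice on a C57B/6 background (APP mice, which carry transgenes driven by the Thy1 promoter, a human mutant APP among them) given JQ1 at 50 mg per kg i.p. for 10 days (6 samples), the same line given vehicle (10% DMSO) for 10 days (6 samples), and vehicle-treated WT mice (4 samples with values of 5 labelled, whose strain label names the APP line while their titles call them WT). Young mice were C57B/6JRj WT mice of 3 months given JQ1 at the same dose (8 samples) or vehicle (8 samples) for 13 days. The methods name males for the young mice and females for the APP line, and Xist, which is expressed from the inactive X chromosome of females, was at 497 to 1294 CPM in the aged and 0.0218 to 0.228 FPKM in the young libraries. According to the methods all of them had been through water maze training and were killed by cervical dislocation the day after the probe test, and the hour of killing is not given in the sources used here.

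The clock is a loop of transcription and repression that takes about a day to complete. Arntl (also called Bmal1) pairs with Clock, or with its relative Npas2, on E-box sequences and activates the Per and Cry genes, whose proteins return to the nucleus and block their own activators. Nr1d1 (Rev-erb alpha), also an E-box target, represses Arntl, and Dbp is an output factor that acts on D-box sequences. In rhythmic tissues, including the hippocampus, the RNA of Arntl therefore rises while that of Nr1d1 and Dbp falls, and the RNA of Clock itself hardly cycles in most tissues. Per1 also responds quickly to glucocorticoids, light and neuronal activity, so that its RNA can move apart from the rest.

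RefSeq promoter windows, on the GRCm38.p6 assembly, were matched for 9 of the 10 genes (13 windows, none for Per2). Shown are the 250 bases before the start site in 1 window each of Nr1d1, Per1, Per3, Cry1 and Clock. Those of the other members, Arntl and Dbp among them, are not shown. The 5′ end comes first, with the searched motifs in capitals: the E-box CACGTG, the E-prime box CACGTT, the D-box TTATGTAA, the ROR element TAGGTCA and the CRE TGACGTCA, each on both strands, so that AACGTG is an E-prime box read from the other strand.
Nr1d1 (chr11:98775378-98775627, minus strand): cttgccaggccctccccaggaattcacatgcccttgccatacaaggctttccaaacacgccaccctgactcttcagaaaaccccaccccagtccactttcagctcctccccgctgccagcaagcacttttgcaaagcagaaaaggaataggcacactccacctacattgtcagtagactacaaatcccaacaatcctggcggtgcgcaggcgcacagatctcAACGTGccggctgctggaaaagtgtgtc
Per1 (chr11:69098699-69098948, plus strand): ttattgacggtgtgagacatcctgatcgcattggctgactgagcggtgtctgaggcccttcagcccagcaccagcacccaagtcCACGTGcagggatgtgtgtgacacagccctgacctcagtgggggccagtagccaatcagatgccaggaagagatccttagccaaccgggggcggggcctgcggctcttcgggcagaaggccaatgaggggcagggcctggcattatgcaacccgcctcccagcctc
Per3 (chr4:151044666-151044915, minus strand): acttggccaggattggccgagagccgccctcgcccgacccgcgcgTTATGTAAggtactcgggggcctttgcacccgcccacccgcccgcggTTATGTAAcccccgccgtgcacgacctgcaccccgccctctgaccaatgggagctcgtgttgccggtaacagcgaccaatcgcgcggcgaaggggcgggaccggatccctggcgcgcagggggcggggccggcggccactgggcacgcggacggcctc
Cry1 (chr10:85185055-85185304, minus strand): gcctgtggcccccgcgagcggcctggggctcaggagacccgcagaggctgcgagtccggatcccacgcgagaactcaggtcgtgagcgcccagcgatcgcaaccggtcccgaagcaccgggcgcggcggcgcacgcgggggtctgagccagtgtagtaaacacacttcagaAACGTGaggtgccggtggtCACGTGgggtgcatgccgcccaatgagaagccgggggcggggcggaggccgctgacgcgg
Clock (chr5:76304793-76305042, minus strand): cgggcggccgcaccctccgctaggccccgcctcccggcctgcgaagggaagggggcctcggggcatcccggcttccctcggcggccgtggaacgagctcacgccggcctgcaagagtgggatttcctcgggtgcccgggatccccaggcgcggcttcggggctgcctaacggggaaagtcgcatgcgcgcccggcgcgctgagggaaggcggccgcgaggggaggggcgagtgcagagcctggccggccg
Nr1d1 held an E-prime box beginning 28 bases before the start, Per1 an E-box at 166 bases, Per3 a D-box at 205 and again at 158 bases, and Cry1 an E-prime box at 79 and an E-box at 60 bases. None of these motifs was in the stretch of Clock, in another window of Per1, or in the windows of Npas2 and Dbp. Over windows of 300 bases, which add the 50 bases after the start, the E-box was found in 2 of the 9 genes, the E-prime box in 3, the D-box in 1 (Per3), the ROR element in 1 (Arntl) and the CRE in 0. Counted by window, 2 of the 13 windows held the E-box, 3 the E-prime box, 1 the D-box, 1 the ROR element and 0 the CRE. In all 32851 RefSeq windows of the same length the shares, also by window, were 7.15% for the E-box, 4.68% for the E-prime box, 0.938% for the D-box, 2.61% for the ROR element and 1.79% for the CRE. These matches describe letters in the windows only.

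The aged libraries held from 14605459 to 25339482 gene counts, so that 3 reads were worth 0.118 to 0.205 CPM (counts scaled to library size), well below each member. The depth of the young libraries is unknown, because FPKM hold no counts. A library labelled JQ1-treated APP, replicate 4, went against its label: it had 820 CPM on Thy1, whose sequence the transgenes carry, where the other 11 APP libraries had 1618 to 2342 CPM and the 4 WT libraries 841 to 1070 CPM. Its Gfap, the filament of reactive astrocytes, was at 322 CPM, against 1262 to 5166 CPM in the other APP and 249 to 321 CPM in the WT libraries. It stays in its labelled group in the tests, and results that rest on it are also given without it. CA1 markers (Wfs1, Fibcd1, Mpped1, Man1a, Gpr161) summed to 777 to 1236 CPM in every aged library, those of the choroid plexus to 23.9 to 142 CPM except in WT replicate 4 with 3181 CPM. CA3 markers (Bok, Grik4, Iyd, Cpne4, Nnat) summed to 347 to 528 CPM in all but replicate 1 of each aged group. Those had 675 (JQ1-treated APP), 582 (vehicle-treated APP) and 622 CPM (WT). Dentate gyrus markers were lowest within their groups in replicate 1 of vehicle-treated APP (71.0 CPM) and WT mice (51.1 CPM). JQ1-treated APP replicate 1 had 95.4 CPM, replicate 6 89.3 CPM. Replicate 1 also had the least Arntl of each aged group, and the part of dissection was not tested. Each library was also given a GC slope, the change of its log2 levels per 10% of GC content of the genes relative to the mean of the 16 aged libraries. It ran from -0.26 to 0.01 in JQ1-treated and from 0.08 to 0.24 in vehicle-treated APP libraries, without overlap, and from -0.26 to 0.09 in WT libraries.

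All 10 genes were well expressed. Per kilobase of exon, Nr1d1 stood highest in vehicle-treated aged WT mice, at 36.8 ± 7.7 CPM per kilobase (SD, n = 4), followed by Cry2 at 23.2 ± 1.76, Per1 at 19.0 ± 3.54 and Dbp at 18.3 ± 3.97. Nr1d1 and Cry2 did not overlap between libraries, whereas Cry2, Per1 and Dbp could not be told apart within their spread. Below another gap came Per2 at 10.9 ± 1.53, Npas2 at 8.35 ± 0.824, Per3 at 6.63 ± 0.746, Arntl at 5.61 ± 0.593, Cry1 at 4.17 ± 0.496 and Clock at 4.04 ± 0.578 CPM per kilobase. Each of these overlapped with its neighbour in this order. In vehicle-treated young WT mice Nr1d1 was at 43.5 ± 4.12 FPKM (SD, n = 8), Cry2 at 32.5 ± 1.86, Per1 at 16.2 ± 1.75, Clock at 13.9 ± 1.25, Arntl at 11.3 ± 0.902, Per3 at 10.4 ± 1.26, Npas2 at 8.33 ± 0.399, Per2 at 6.62 ± 0.594 and Cry1 at 5.64 ± 0.417 FPKM. Clock thus came last of the 10 in aged WT and behind Per1 in young WT mice, and both scales were made by different programs, so that this difference in order was not tested. The FPKM files join Dbp with its neighbour Car11 in a single locus (111 ± 10.1 FPKM), whose value is not Dbp alone.

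**Figure D1:**
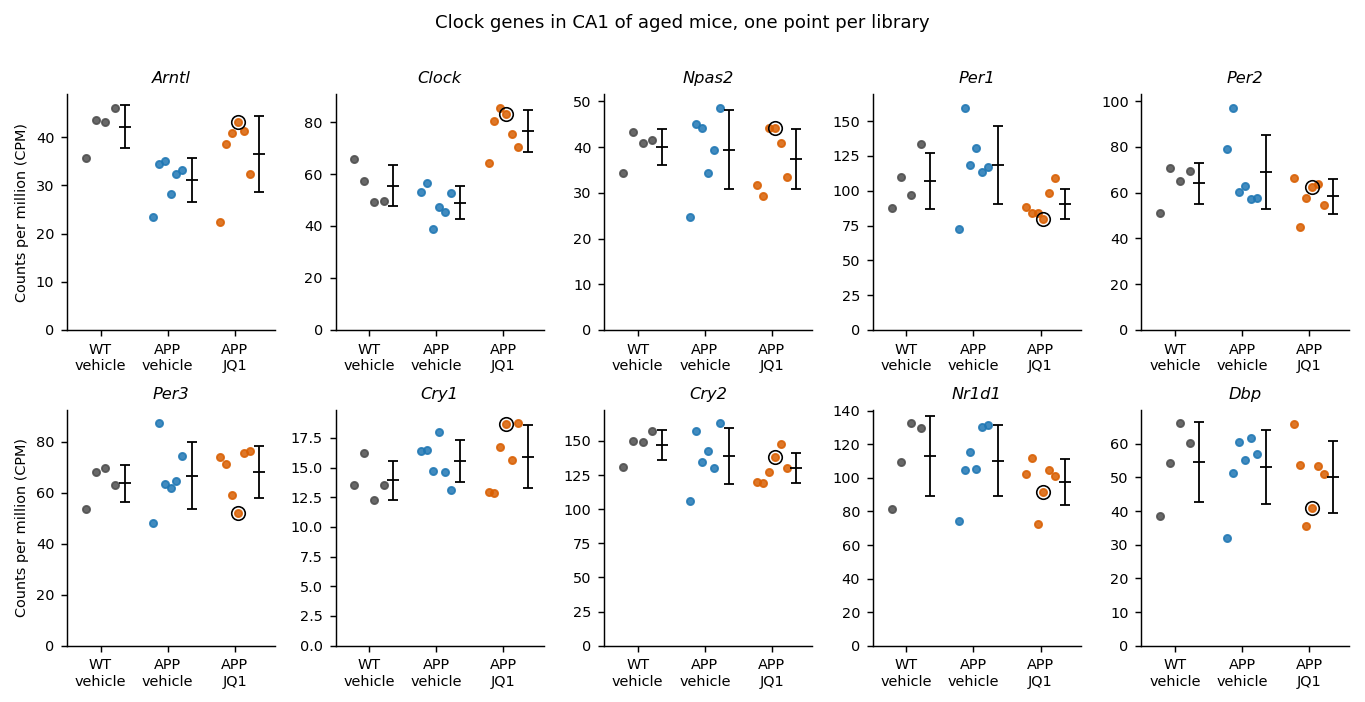
Level of the 10 clock genes in CA1 of aged mice in CPM (vertical axes, starting at 0), by group, with a point for each library (4 vehicle-treated WT, 6 vehicle-treated APP and 6 JQ1-treated APP) and the mean ± SD beside the points. The ring marks the library labelled JQ1-treated APP replicate 4, and the points of Clock in JQ1-treated APP mice, 64.4 to 85.5 CPM, all lie above those of vehicle-treated APP mice, 38.9 to 56.5 CPM.

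The first question was whether JQ1 moved clock genes in APP mice. Clock, the DNA-binding partner of Arntl, rose in JQ1-treated against vehicle-treated APP mice, and it was the only member that passed the threshold. Clock (ENSMUSG00000029238, chr5:76209868-76304792 on GRCm38, minus strand) was at 64.4, 80.5, 85.5, 83.0, 75.6 and 70.5 CPM in the 6 JQ1-treated libraries and at 53.3, 56.5, 38.9, 47.2, 45.4 and 52.8 CPM in the 6 vehicle-treated libraries. The groups did not overlap, the lowest JQ1-treated library lying above the highest vehicle-treated library. The log2 fold change was 0.64 ± 0.10 (SE), or 1.56-fold, with an adjusted p of 0.00469 over all genes (edgeR's quasi-likelihood test, Benjamini-Hochberg), and the exact two-sided permutation p was 0.00216, the smallest that 6 against 6 allows. Of all 16962 genes tested in this comparison 1.08% passed the threshold, and 2.03% did not overlap between the groups, against 1 of the 10 clock genes for each. In bulk tissue, more cells of a type and more RNA per cell cannot be told apart.

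The rise of Clock did not rest on a single library. It was 0.62 (adjusted p = 0.0136, edgeR) without the library labelled JQ1-treated APP replicate 4, and between 0.59 and 0.69 with any of the 16 aged libraries left out, with an adjusted p of at most 0.0182. It moved with the GC slope of the libraries, as the plot of Clock against that slope shows. Clock has a GC content of 41.5% in its exons, the lowest of the 10 members, which otherwise run from 48.3% to 58.9%. Within groups the deviation of Clock from its group mean had a Pearson r of -0.78 with the GC slope over 16 libraries (Spearman's rho -0.79, within-group permutation p = 0.00032 for r), and r was -0.70 without the 2 libraries with the farthest slopes. After a correction of each library for GC content and length of genes, the log2 fold change was 0.40, with an adjusted p of 0.00699 by edgeR. That correction left 37 genes past the threshold, 32 higher and 5 lower, in place of 184 (105 higher and 79 lower).

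**Figure D2:**
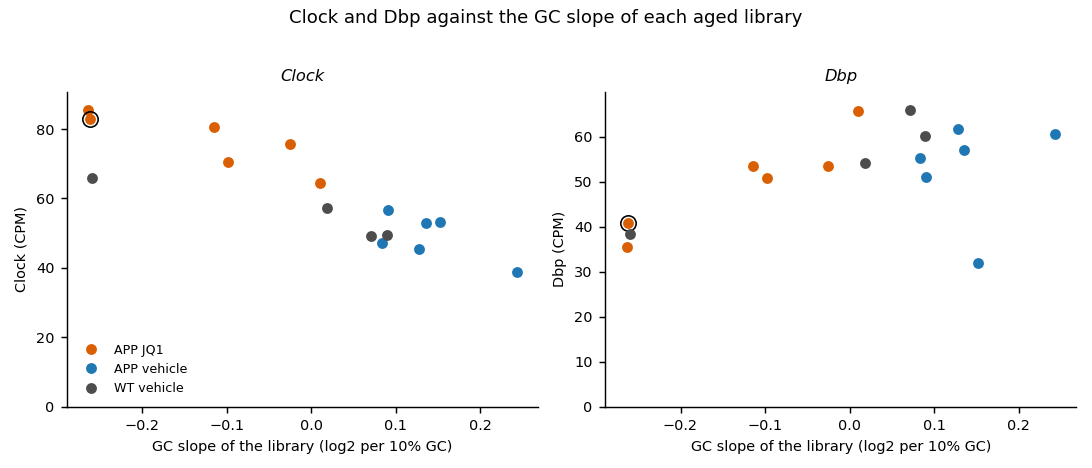
Level of Clock (left) and of Dbp (right) in CPM, on axes that start at 0, against the GC slope of each of the 16 aged libraries, the change in log2 level per 10% of gene GC content relative to the mean library. Clock was at 85.5 CPM in JQ1-treated APP replicate 3 and at 65.9 CPM in WT replicate 1, both with a slope of -0.26. It was at 38.9 CPM in vehicle-treated APP replicate 3, with a slope of 0.24. Dbp was lowest, at 32.0 CPM, in vehicle-treated APP replicate 1, with a slope of 0.15. The ring marks the library labelled JQ1-treated APP replicate 4.

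The other activators gave no call. Arntl was at 22.4 CPM in JQ1-treated APP replicate 1 and at 32.3 to 43.3 CPM in the other 5, against 23.4 CPM in vehicle-treated APP replicate 1 and 28.3 to 35.2 CPM in the others. The difference was 0.23 ± 0.14 (SE, adjusted p = 0.418 by edgeR), with the interval of 2 SE from -0.05 to 0.50. For Npas2, which can stand in for Clock, it was -0.08 ± 0.14 (adjusted p = 0.812 by edgeR).

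Among the repressors, Per1 gave the largest difference and missed the threshold. Its level was 79.6 to 109 CPM in the 6 JQ1-treated APP libraries, with a median of 86.3, and 72.8 to 159.7 CPM in the vehicle-treated libraries, with a median of 118. Replicate 1 was the lowest of the vehicle-treated libraries, and the other 5 of them, from 114 CPM upwards, lay above all 6 JQ1-treated libraries. The log2 difference was -0.39 ± 0.15 (adjusted p = 0.175 by edgeR, exact permutation p = 0.0606) and passed only without vehicle-treated replicate 1, at -0.50 with an adjusted p of 0.0477. After the correction for GC content and length of genes it was -0.13 with an adjusted p of 0.852 by edgeR. Per2 differed by -0.24 ± 0.13 (adjusted p = 0.359 by edgeR), Per3 by 0.03 ± 0.13, Cry1 by 0.03 ± 0.12 and Cry2 by -0.09 ± 0.09, all with adjusted p from 0.359 to 0.926. Nr1d1 differed by -0.18 ± 0.14 (adjusted p = 0.539 by edgeR) and Dbp by -0.08 ± 0.17 (adjusted p = 0.845 by edgeR). In all, 4 of the 10 members were higher and 6 lower, with a median of -0.08 beside -0.00105 for all genes tested. Of 17 other clock genes (Arntl2, Rora, Rorb, Nr1d2, Bhlhe40, Bhlhe41, Ciart, Nfil3, Tef, Hlf, Csnk1d, Csnk1e, Fbxl21, Btrc, Fbxw11, Usp2 and Timeless) 0 passed the test in this comparison, with differences from -0.36 to 0.42. Rora came closest to the threshold, at 0.42 ± 0.11 (adjusted p = 0.0574 by edgeR, exact permutation p = 0.00649). The paper lists both Clock and Rora among the genes that JQ1 changed in APP mice.

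**Figure D3:**
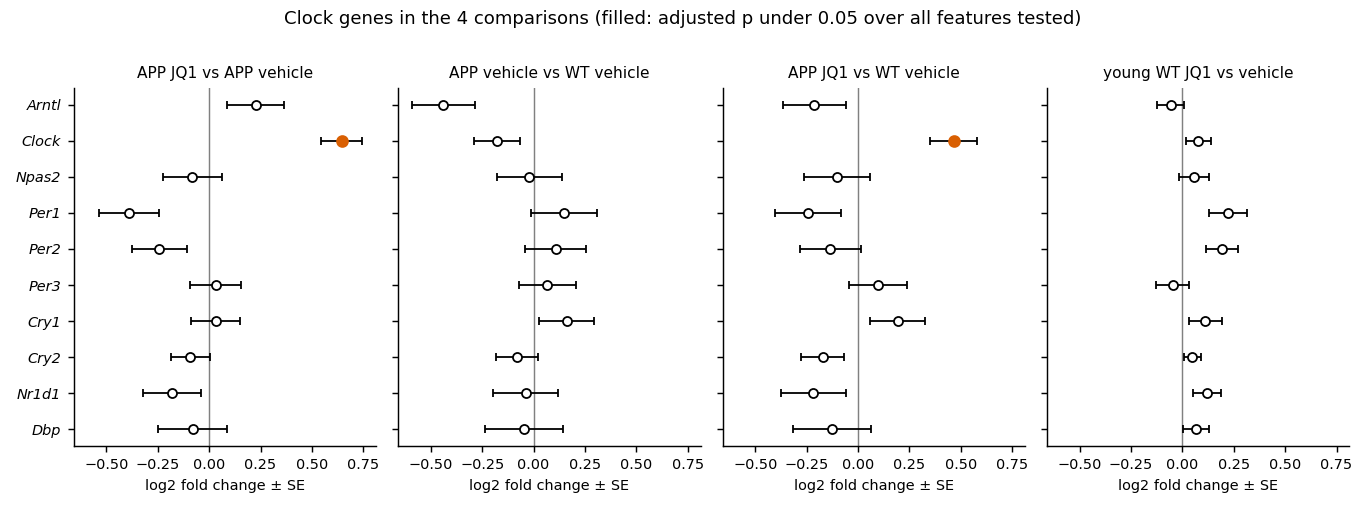
Log2 fold change of the 10 clock genes (horizontal axes, with the standard error as bars) in the 4 comparisons, with filled points for an adjusted p under 0.05 over all features tested. Only Clock is filled, at 0.64 in JQ1-treated against vehicle-treated APP mice and at 0.47 in JQ1-treated APP against WT mice, and its value in young WT mice is 0.08.

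The next comparison asked whether clock genes differed between vehicle-treated APP and WT mice of the same age. None of the 10 members and none of the 17 other clock genes passed the test, in a comparison in which 2.57% of the 16962 genes did, 2.49% higher and 0.0825% lower in APP mice. Arntl had the lowest log2 difference of the members. It was at 35.8, 43.7, 43.1 and 46.2 CPM in the 4 WT libraries and at 23.4, 34.5, 35.2, 28.3, 32.3 and 33.1 CPM in the 6 APP libraries. All APP libraries were below all WT libraries, the highest of the former by less than 1 CPM. The log2 difference was -0.44 ± 0.15 (adjusted p = 0.172 by edgeR, exact permutation p = 0.00476, the smallest that 6 against 4 allows), and 6.99% of all genes had groups that did not overlap. Leaving out any library gave -0.52 to -0.37, with an adjusted p under 0.05 in 1 of 16 fits, that without JQ1-treated APP replicate 1 (-0.45, adjusted p = 0.0462 by edgeR). Nr1d1 and Dbp, which cycle against Arntl, gave no call. Nr1d1 was at 81.3, 109, 133 and 129.8 CPM in WT and at 74.2, 105, 116, 105, 131 and 132 CPM in vehicle-treated APP libraries, a difference of -0.04 ± 0.16 (adjusted p = 0.940 by edgeR). Dbp was at 38.4, 54.1, 66.0 and 60.2 CPM in WT and at 32.0, 51.1, 60.6, 55.2, 61.8 and 57.1 CPM in vehicle-treated APP libraries, a difference of -0.05 ± 0.19 (adjusted p = 0.937 by edgeR). For both genes the groups spanned nearly the same range. Per1 to Per3 and the Cry genes differed by -0.08 to 0.16, with intervals of 2 SE that reached from -0.29 to 0.47. Markers of glia moved with this comparison. The 5 microglia markers (Cx3cr1, P2ry12, Csf1r, C1qa, Aif1) summed to 429 to 788 CPM in vehicle-treated APP and 217 to 249 CPM in WT libraries, with 3 called higher, and the 5 astrocyte markers (Gfap, Aqp4, Slc1a3, Aldh1l1, Gja1) to 2258 to 6326 and 1214 to 1302 CPM, with 1 called higher (Gfap). Their part in the values of Arntl was not tested.

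JQ1-treated APP mice, set against vehicle-treated WT mice, shared their groups with the comparisons above. Clock was at 65.9, 57.3, 49.1 and 49.5 CPM in the WT libraries, so that the highest WT library overlapped with the lowest JQ1-treated library. The log2 difference was 0.47 ± 0.11 (adjusted p = 0.0405 by edgeR, exact permutation p = 0.00952), where 1 of the 10 members passed and 2.06% of all genes did, 1.93% of them higher and 0.13% lower with JQ1. No member had groups that did not overlap, beside 3.71% of all genes. Without the library labelled JQ1-treated APP replicate 4 it was 0.43 with an adjusted p of 0.0544 by edgeR, and the call held in 6 of the 16 fits that left out a library, with values from 0.40 to 0.55. It was also lost without the filter on low counts (0.45, adjusted p = 0.0565) and when only those 2 groups were fitted (0.46, adjusted p = 0.0529), both by edgeR. Of the glia markers 3 of 5 for microglia (Csf1r, C1qa, Cx3cr1) and 3 of 5 for astrocytes (Slc1a3, Gfap, Aqp4) were called higher here, with sums of 228 to 750 and 1462 to 5713 CPM in JQ1-treated APP libraries, and their part in the value of Clock was not tested. Between JQ1-treated and vehicle-treated APP libraries 0 of these 10 markers were called. The other 9 members were called in none of these fits and differed by -0.24 (Per1) to 0.19 (Cry1).

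In young WT mice JQ1 left no clock gene past the threshold, and the comparison as a whole called 0.00543% of 18420 loci. None of the members had groups that did not overlap, beside 0.0271% of the loci. Clock was at 13.0 to 15.7 FPKM in the JQ1-treated libraries (median 15.0, n = 8) and at 12.6 to 15.95 FPKM in the vehicle-treated libraries (median 13.3, n = 8). The ranges nearly coincided and the log2(FPKM + 0.1) difference was 0.08 ± 0.06 (adjusted p = 0.981 by limma), with the interval of 2 SE from -0.04 to 0.20. The value in APP mice lies outside this interval, but sexes, ages, days of treatment, strains and units differed and the difference between both experiments was not tested. Per1 was at 15.6 to 25.4 FPKM with JQ1 (median 19.2) and at 13.3 to 18.2 FPKM with vehicle (median 15.9), a difference of 0.22 ± 0.09 (adjusted p = 0.981 by limma, exact permutation p = 0.0426). Per2 was at 6.76 to 9.89 FPKM with JQ1 (median 7.30) and at 5.41 to 7.41 FPKM with vehicle (median 6.75), a difference of 0.19 ± 0.08 (adjusted p = 0.981 by limma, exact permutation p = 0.0168). In aged APP mice both genes had differences below 0. The other 7 members, the Dbp and Car11 locus included, differed by -0.06 to 0.12, and 8 of the 10 members were higher with JQ1, with a median of 0.07 beside 0.0025 for all loci.

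**Figure D4:**
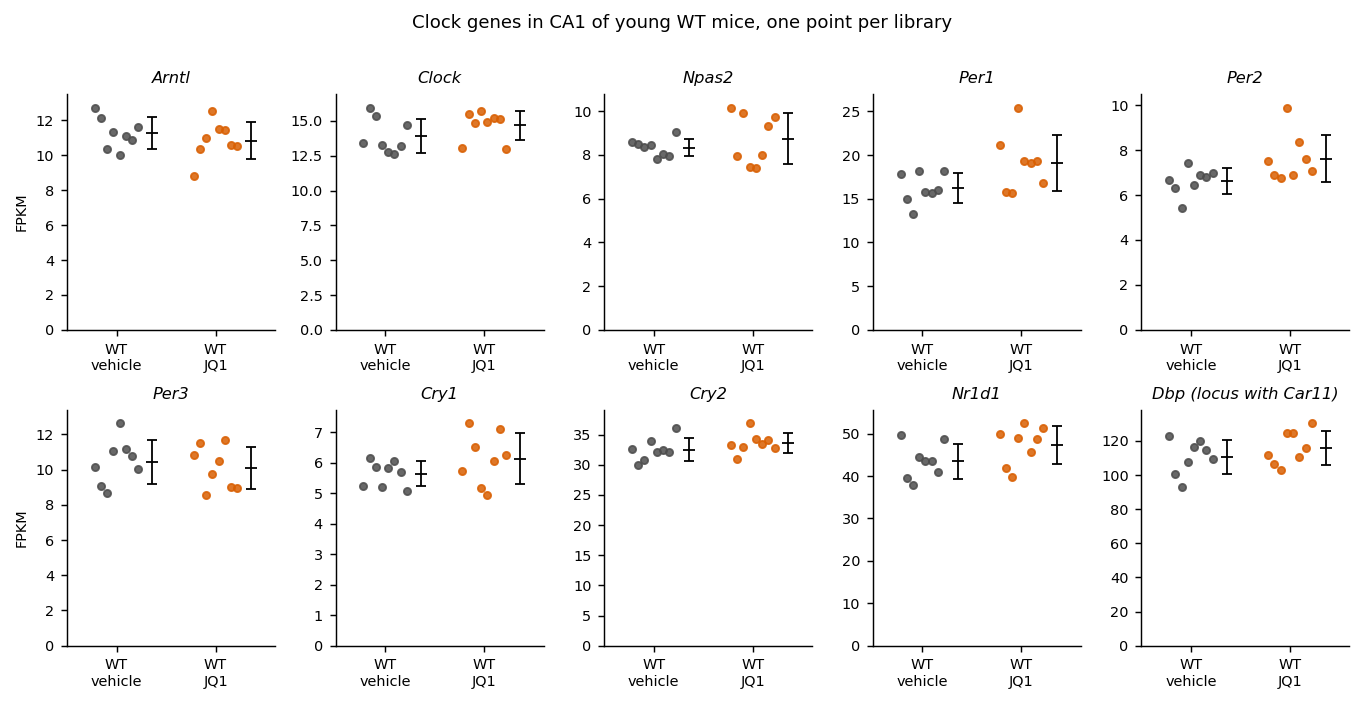
Level of the 10 clock genes in CA1 of young WT mice in FPKM (vertical axes, starting at 0), with a point for each of the 8 vehicle-treated and 8 JQ1-treated libraries and the mean ± SD beside the points. The groups overlap for every gene, for example Clock at 12.6 to 15.95 FPKM with vehicle and 13.0 to 15.7 FPKM with JQ1.

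The spread of the members within groups was set beside that of all genes tested, which include genes of low counts. The SD of log2 levels within aged groups was 0.34 for Dbp, 0.28 for Per1, Npas2 and Nr1d1 and 0.27 for Arntl, with the lowest values for Cry2 (0.17) and Clock (0.18). The median over the 10 members was 0.26, beside 0.25 for all 16962 genes, and Dbp, the most variable member, stood at the percentile 64.5 of all genes. In young groups the median was 0.14 beside 0.19 for all loci, with 0.20 for Per1 and 0.08 for Cry2.

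Within groups Nr1d1 and Dbp moved together from library to library. In aged groups the slope of Nr1d1 on the log2 level of Dbp was 0.77 ± 0.11 (SE, adjusted p = 0.00728 over 16961 genes by edgeR), where 2.37% of the genes passed. Pearson's r of the deviations from the group means was 0.91 (Spearman's rho 0.85, n = 16, within-group permutation p = 8e-05 for r and 0.0002 for rho). It was the highest of the 16961 genes, but hardly above that of Cspg5 (0.9149 against 0.9148), and Azin1 had an r of -0.96. The r of Nr1d1 was 0.81 without the 2 libraries farthest from the median of Dbp, 0.93 without the library labelled JQ1-treated APP replicate 4, and 0.83, 0.94 and 0.99 within the JQ1-treated APP, vehicle-treated APP and WT groups of 6, 6 and 4 libraries. The low libraries for both genes were vehicle-treated APP replicate 1 (Dbp 32.0 and Nr1d1 74.2 CPM), JQ1-treated APP replicate 3 (35.6 and 72.8 CPM) and WT replicate 1 (38.4 and 81.3 CPM), so that each group held such a library. The deviation of Dbp had an r of 0.70 with the GC slope and that of Nr1d1 an r of 0.61 (n = 16). Without the 2 libraries with the farthest slopes these were 0.50 and 0.30. With the correction for GC content and length of genes the slope was 0.78 with an adjusted p of 0.0217 by edgeR. In young groups the slope of Nr1d1 on the Dbp and Car11 locus was 0.83 ± 0.20 (adjusted p = 0.0936 over 18419 loci by limma, where 0.0543% passed), with an r of 0.77 (rho 0.72, n = 16, within-group permutation p = 0.00101 for r and 0.00306 for rho), 0.71 without the 2 farthest libraries and 0.86 and 0.68 within the JQ1 and vehicle groups. These r are 2 of 34 computed between members, and Dbp and Nr1d1 both overlap exons of a gene on the other strand, Sphk2 over 539 bases and Thra over 263 bases. In young mice Nr1d1 stood at place 120 of 18419 loci by its r with the Dbp and Car11 locus.

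Of the 17 other clock genes 4 had a called slope on Dbp in aged mice, all above 0, beside 2.37% of all genes, and 13 did not pass, with slopes from -0.34 (Nfil3) to 0.39 (Hlf). Ciart, a repressor of the Arntl and Clock pair, had a slope of 0.79 ± 0.15 (adjusted p = 0.0191 by edgeR), and Usp2, a deubiquitinase, 0.55 ± 0.14 (adjusted p = 0.0439 by edgeR). Tef, a relative of Dbp, had a slope of 0.39 ± 0.09 (adjusted p = 0.0423 by edgeR), and Csnk1e, a kinase of the PER proteins, 0.33 ± 0.08 (adjusted p = 0.0406 by edgeR). Without the library labelled JQ1-treated APP replicate 4 the call held for Nr1d1 (adjusted p = 0.0111) and Ciart (0.0481) and was lost for Tef (0.0826), Csnk1e (0.0794) and Usp2 (0.0897), by edgeR. Over all 16 fits that left out a library the call held in 15 for Ciart, 4 for Tef, 5 for Csnk1e and 4 for Usp2, and the correction for GC content and length of genes ended it for Tef (adjusted p = 0.0937), Csnk1e (0.407) and Usp2 (0.158), by edgeR. In young groups 0 of the 17 passed, beside 0.0543% of all loci.

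None of the Per and Cry genes had a called slope on Dbp. Per3 had a slope of 0.50 ± 0.15 (adjusted p = 0.0688 by edgeR) and Per1 of 0.49 ± 0.19 (adjusted p = 0.153 by edgeR) in aged mice. For Per1 r fell from 0.59 to 0.10, and for Per3 from 0.71 to 0.48, without the 2 libraries farthest from the median of Dbp, so that the relation of Per1 rested on those libraries. Per2, Cry1 and Cry2 had slopes of -0.07, -0.27 and 0.21 with adjusted p from 0.357 to 0.873 by edgeR. Clock went the other way, with a slope of -0.40 ± 0.11 on Dbp in aged mice (adjusted p = 0.0608 by edgeR) and of -0.53 ± 0.21 on the Dbp and Car11 locus in young mice (adjusted p = 0.280 by limma). In aged mice it passed the threshold in 2 of the 16 fits that left out a library, with adjusted p up to 0.279 by edgeR. The lowest value came without vehicle-treated APP replicate 1, at -0.54 with an adjusted p of 0.0121 by edgeR. With every library kept, 0 of 3 alternatives (RLE factors, replicate block, GC and length correction) gave a call. Their slopes ran from -0.47 to -0.27, with adjusted p from 0.0645 to 0.168 by edgeR. Clock and Dbp had an r of opposite sign with the GC slope of the aged libraries, and no counts or GC slopes were at hand for the young libraries.

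Neither Dbp nor Nr1d1 had a called slope on Arntl. The slope of Dbp on Arntl was -0.02 ± 0.30 in aged mice (adjusted p = 0.988 by edgeR) and that of Nr1d1 was 0.29 ± 0.25 (adjusted p = 0.728 by edgeR). In young mice they were 0.26 ± 0.26 and 0.22 ± 0.28, with adjusted p of 0.838 and 0.898 by limma. Within the aged groups r between Arntl and Dbp was 0.85 in the 6 vehicle-treated APP libraries, 0.89 in the 4 WT libraries and -0.73 in the 6 JQ1-treated APP libraries. JQ1-treated replicate 1 had the least Arntl (22.4 CPM) and the most Dbp (65.7 CPM) of its group, and vehicle-treated APP replicate 1 had the least of both in its group. Over the 3 aged groups the slope of Dbp on Arntl was 0.86 without the former (adjusted p = 0.376) and -0.35 without the latter (adjusted p = 0.751), both by edgeR, so that its sign depended on the libraries included. The member closest to Arntl in aged mice was Npas2, with a slope of 0.73 ± 0.19 (adjusted p = 0.0821 by edgeR, where 0.684% of 16961 genes passed) and an r of 0.73 (rho 0.75, n = 16, within-group permutation p = 0.00147 for r and 0.00185 for rho), 0.70 without the 2 libraries farthest from the median of Arntl. In young mice the slope of Npas2 was -0.42 ± 0.28 (adjusted p = 0.701 by limma, where 0.244% of 18419 loci passed).

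**Figure D5:**
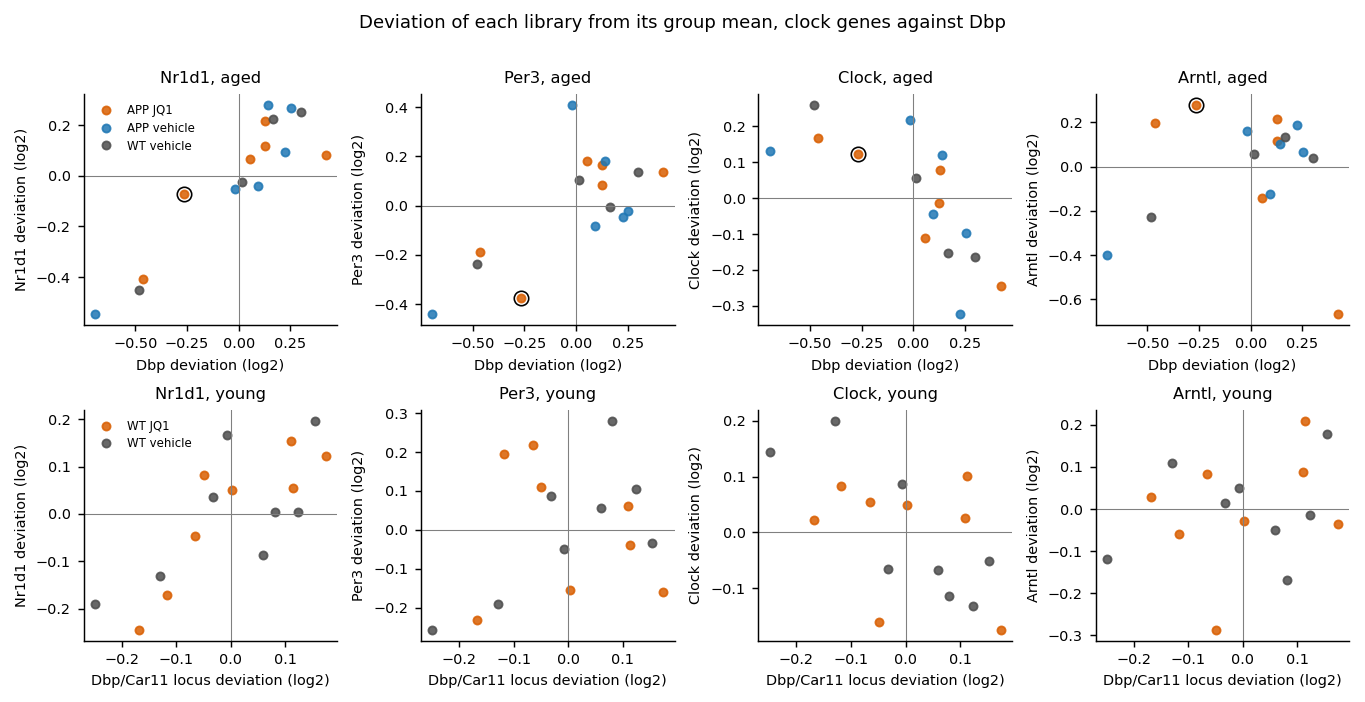
Deviation of each library from its group mean in log2 units, for Nr1d1, Per3, Clock and Arntl (vertical axes) against Dbp (horizontal axes), in the 16 aged libraries (top, counts) and the 16 young libraries (bottom, FPKM, where Dbp shares a locus with Car11), coloured by group. Nr1d1 rises with Dbp in both (r of 0.91 and 0.77), Clock falls (r of -0.73 and -0.58), and Arntl has r of 0.06 and 0.27. The ring marks the library labelled JQ1-treated APP replicate 4.

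Outside the clock, the genes closest to Dbp over the 16 aged libraries were Cspg5, Amdhd2, Epha8 and Ltbp4 after Nr1d1, each with an r of 0.91, and the most opposed were Azin1, Exoc5, Csnk1a1, Ppp4r2 and Hspa13, with r of -0.96 to -0.92. In the 16 young libraries the closest to the Dbp and Car11 locus were Haghl, Arl2, Gna15 and C1qb, and the most opposed Psd3, Usp53, Ids, Gm8034 and Rps6ka5. In the young libraries the genes named from aged mice had r of 0.55 for Cspg5, 0.29 for Amdhd2, 0.18 for Epha8 and 0.24 for Ltbp4, and of -0.54 for Azin1, -0.46 for Exoc5, -0.14 for Csnk1a1, -0.43 for Ppp4r2 and -0.73 for Hspa13. Those named from young mice and tested in aged mice had r of 0.12 (Arl2) to 0.62 (Haghl) on the close side and -0.60 (Psd3) to -0.21 (Usp53) on the opposed side there. For Arntl the closest genes in aged mice were Camkk2, Gm16897, Rap2a, Kcnh7 and Lmo3, with r of 0.90 to 0.93, and the most opposed Clec18a, S100a4, Sparc, Klk6 and Trp53inp2. In young mice they were Scn3b, a locus without a name, Colgalt2, Tfdp2 and Creb3l1 on the close side and C77080, RP23-156K23.1, Ppie, Entpd3 and Ctla2a on the opposed side. In aged mice the r of those tested there ran from -0.24 (Creb3l1) to 0.88 (Scn3b) on the close side and from -0.72 (Ctla2a) to 0.02 (C77080) on the opposed side, and the r in young mice of those named from aged mice ran from 0.02 (Rap2a) to 0.75 (Kcnh7) and from -0.32 (Sparc) to 0.42 (Trp53inp2). These values describe likeness over the 16 libraries of each experiment. The aged libraries differed in depth and GC slope, and neither is known for the young libraries. Their part in these values was not tested.

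Per1 answers to stress hormones and to neuronal activity, so lists of such genes were read beside it. The 10 glucocorticoid-induced genes summed to 788 to 1230 CPM in JQ1-treated APP, 881 to 2091 CPM in vehicle-treated APP and 730 to 961 CPM in WT libraries. The highest sum was that of vehicle-treated APP replicate 1, the library with the least Per1 of its group. That library also had the highest sum of astrocyte markers of all aged libraries, at 6326 CPM. The 9 activity-induced genes summed to 168 to 642 CPM in JQ1-treated APP, 358 to 770 CPM in vehicle-treated APP and 357 to 840 CPM in WT libraries. Their median log2 fold change for JQ1 in APP mice was -0.56, and that of the glucocorticoid-induced genes 0.00013. In APP mice no gene of these lists was called for JQ1, and Plin4 of the first list was higher in vehicle-treated APP than in WT mice (adjusted p = 0.0395 by edgeR). The part of stress or activity in the values of Per1 was not tested.

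Whether the time of killing differed between groups or samples was not tested, since no hour is given for any sample in the sources used here. The measurements that bear on it are those above. Between groups, in all 4 comparisons, Arntl on the side of the activators and Nr1d1 and Dbp on the side of the repressors and outputs gave no called difference. For vehicle-treated APP against WT, the interval of 2 SE for Arntl ran from -0.75 to -0.13, without 0 (adjusted p = 0.172 by edgeR). Its groups did not overlap (exact permutation p = 0.00476), nor did those of 6.99% of all genes. There the intervals of 2 SE reached from -0.35 to 0.28 for Nr1d1 and from -0.42 to 0.33 for Dbp. Within groups Nr1d1 and Dbp rose and fell together, the low libraries were spread over all 3 aged groups, and neither gene had a called slope on Arntl, the sign of that of Dbp changing with the library left out. Dbp and Nr1d1 also had r of 0.70 and 0.61 with the GC slope, and of 0.50 and 0.30 without the 2 libraries with the farthest slopes. Of the low libraries, JQ1-treated APP replicate 3 and WT replicate 1 had the lowest GC slope of their group, vehicle-treated APP replicate 1 did not. With a block for the replicate number the slope of Nr1d1 on Dbp was not called (adjusted p = 0.0950 by edgeR).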

How the data were processed

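RNA of CA1 was sequenced on a HiSeq2000. According to the methods the authors aligned the reads with STAR (at most 2 mismatches, mm10) and counted them with htseq, and the deposited counts of the aged mice are whole reads per gene without normalization. The deposited FPKM of the young mice were made by the authors, whose methods name cufflinks/cuffdiff, and the submitters' processing notes also name CASAVA 1.8.2 and TopHat. The strand setting and annotation are not given in the sources used here. Rows that name no gene were left out, of which the reads on no feature were 15.4% to 26.9% per aged library.

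Counts were normalized with TMM and tested with edgeR 4.0.16 (filterByExpr, robust quasi-likelihood test, 1 fit of the 3 aged groups). CPM in the text are scaled with these factors. FPKM were tested with limma 3.58.1 (trend, robust) on log2(FPKM + 0.1) for loci that reached 0.5 FPKM in 8 or more of the 16 samples, and fold changes on that scale understate the change of low genes. Slopes were fitted by the same tools on the group-centred log2 level of Arntl or Dbp, with group as a covariate. P-values were adjusted (Benjamini-Hochberg) over all features, with a threshold of 0.05. Single genes were also tested with exact two-sided permutation tests, and correlations with 1e+05 permutations within groups. Groups were taken from the labels, which do not state that each sample is a separate animal, so that p-values measure the spread between these samples.

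The members are the 10 genes given by name, and 17 other clock genes, lists of induced genes and cell type markers, and Arntl and Dbp as references were set by name. Genes most like Arntl and Dbp are the 5 highest and 5 lowest r in each experiment, of which a locus of several genes is not named. Some genes that were first on these lists are not reported here. The members and lists were chosen with earlier results of these data known. Alternatives were RLE factors, other filters, pseudocounts and moderation, DESeq2 1.42.0, fits of 2 groups, median-ratio rescaling, a correction for GC content and length (splines of 5 degrees of freedom), the replicate number as a block, and leaving out each library. Nr1d1 as the reference in place of Dbp was added after seeing the data. The scripts were tested on simulated data. Gene models are those of GENCODE vM21 on GRCm38, the build of mm10. The work ran in R 4.3.3 and in Python 3.11.15 with pandas 2.3.3, matplotlib 3.10.9, scipy 1.17.1 and numpy 2.4.6.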

Additional observations from a re-analysis of the deposited data

Results flagged for a closer look

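Among 50 sets of a member and a group, 1 held a library that stood apart by Dixon's test at the 95% level. Dbp was at 32.0 CPM in vehicle-treated APP replicate 1, against 51.1 CPM in the next library of that group, a gap of 0.644 of the group's range where 0.625 is the critical value for 6 samples. Chance flags about 1 in 20 such sets. The same library was the lowest of its group for Arntl, Npas2, Per1, Per3, Cry2 and Nr1d1. Its summed glucocorticoid-induced genes (2091 CPM) and its summed astrocyte markers (6326 CPM) were both the highest of the 16 aged libraries.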

How the results depend on the processing

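Clock in JQ1-treated against vehicle-treated APP mice kept its direction and its call under all 8 alternatives that kept every library, from 0.40 to 0.65 with adjusted p from 2.13e-06 (DESeq2) to 0.0424 (replicate block with the GC correction, by edgeR). Counts of called genes moved. For JQ1-treated against vehicle-treated APP mice 184 became 37 once corrected for GC content and length, and 749 by DESeq2, and 65 to 446 with a library left out (73 without the library labelled JQ1-treated APP replicate 4). For vehicle-treated APP against WT mice 436 became 798 by DESeq2 and 679 in a fit of those groups only, and 154 to 601 with a library left out. For JQ1-treated APP against WT mice 349 became 800 by DESeq2 and 227 in a fit of those groups only, with 11 (without WT replicate 5) to 651 (without JQ1-treated APP replicate 4). In young mice 1 locus became 0 without the filter, and 0 to 2 with a library left out, where 857 had an unadjusted p under 0.05 by limma. Genes covarying with Arntl went from 116 to between 7 and 222 in aged mice, and from 45 to 2 with median-ratio rescaling and to between 0 and 103 in young mice. Genes covarying with Dbp in aged mice went from 402 to 74 with the GC correction, to 155 with Nr1d1 as the reference (chosen after seeing the data), and to between 17 (without WT replicate 1) and 2728 (without vehicle-treated APP replicate 1). In young mice they went from 10 to 4 with rescaling, 220 with Nr1d1 as the reference, and 0 to 43 with a library left out. The cause of these moves was not tested.

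Whether replicate numbers in the titles pair the samples could not be told from the likeness of their deviations. The mean r of same-numbered samples was -0.023 in aged and 0.026 in young mice, beside 0.011 and -0.0037 for different numbers. The deviations of same-numbered aged samples had r from -0.47 to 0.34, over 0.1 in 4 of 14 pairs, those of young samples from -0.07 to 0.10, over 0.1 in 1 of 8 pairs, and 4 of 16 samples in each experiment correlated best with their own number. With a block for the replicate number, counts were 87, 35 and 21 for the 3 aged comparisons in the order above and 0 for the young, 0 and 4 for Arntl and 6 and 0 for Dbp in aged and young mice. With the block and the GC correction the aged counts were 32, 29 and 41. Under the block the slope of Nr1d1 on Dbp was 0.62 (adjusted p = 0.0950 by edgeR), and Clock in JQ1-treated APP against WT mice had an adjusted p of 0.189, and of 0.133 with the GC correction too.

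Signs turned only among differences and slopes that had not been called. With the GC correction, JQ1-treated against vehicle-treated APP mice had 0.039 for Cry2, 0.037 for Npas2 and 0.091 for Dbp, and vehicle-treated APP against WT mice had -0.044 for Per1, -0.041 for Per2 and -0.033 for Per3, while the slope of Dbp on Arntl was 0.077. With that correction and the block they were 0.043, 0.045 and 0.11, with 0.00335 for Nr1d1, and -0.14, -0.027 and -0.11, and Per3 had -0.033 in JQ1-treated APP against WT mice. With the block alone Per3 had -0.054 in vehicle-treated and -0.00509 in JQ1-treated APP against WT mice, and the slopes were -0.68 for Nr1d1 on Arntl, -0.29 for Arntl on Dbp, and -0.28 for Per1 on Dbp in young mice. With a library left out, JQ1-treated against vehicle-treated APP mice ran from -0.046 to 0.12 for Per3, -0.021 to 0.092 for Cry1 and -0.19 to 0.00465 for Dbp. Vehicle-treated APP against WT mice ran from -0.027 to 0.15 for Per2, -0.038 to 0.14 for Per3, -0.10 to 0.084 for Npas2, -0.18 to 0.054 for Nr1d1 and -0.19 to 0.064 for Dbp. The slope of Dbp on Arntl ran from -0.35 to 0.86, and slopes on Dbp from -0.24 to 0.078 for Per2, -0.27 to 0.31 for Arntl and -0.23 to 0.37 for Npas2. Among the other values with every library kept, 344 of single genes and 22 counts kept their direction and their side of the threshold or stayed within 1.5 times. With FPKM only, the depth behind the young values is unknown.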
